A study of Brassica oleracea var. italica with 5 samples.

Results

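Heat shock proteins that *Arabidopsis* embryos store late in seed development were followed in broccoli seeds and sprouts through 10 *Arabidopsis* genes. These are 8 small heat shock proteins, the protein disaggregase *HSP101* and the heat shock factor *HSFA9*. A broccoli unigene (an assembled transcript) was taken as a member where the deposited annotation matched it to one of these loci, and 8 of the 10 loci had a unigene among the 19441 in the tables. No unigene carried a match to *HSP17.4* (AT3G46230) or to *HSFA9* (AT5G54070), which were therefore not analysed here. Of the 8 unigenes, 7 had their highest value in seeds, and *HSP101* had its highest value in 3 day cotyledons, so the name of seed heat shock proteins did not hold for *HSP101*.

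Small heat shock proteins are chaperones that bind partly unfolded proteins and hold them until other chaperones refold them. *HSP101*, of the ClpB type, pulls proteins out of aggregates with the help of HSP70 and small heat shock proteins, and in *Arabidopsis* it is needed for tolerance of high heat. In *Arabidopsis* seeds these genes are switched on without heat during maturation, when the embryo prepares for drying, and *HSFA9*, a seed-specific heat shock factor that acts under the seed regulator ABI3, takes part in this.

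The study compared the transcriptomes of tissues of the broccoli cultivar Qingxiu as seeds turned into sprouts. The tissues were seeds shaken in NaClO and left overnight on moist filter paper, cotyledons of sprouts of 3, 7 and 11 days, and the euphyllas (first true leaves) of sprouts of 11 days. Sprouts grew at a constant warm temperature in a cycle of light and dark, and the sources name no heat treatment. Each tissue gave 1 library made from 3 pooled biological replicates, so a comparison is between 2 libraries, has no replicate error and carries no p-value. A bulk library cannot tell fewer cells of a type from less RNA per cell, and the seed library also differs from the cotyledon libraries in the organs it holds.

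The libraries held between 6802615 reads, in euphyllas, and 10312625 reads, in 11 day cotyledons. Seeds, with 9563149 reads, and 3 day cotyledons, with 7833709, lay between. A level below is a read count or a normalized value, which is the count divided by the size factor that the authors computed for the library. A count of 3 reads, the floor used below, is a normalized value of 2.12 in seeds and of 3.05, 3.15 and 3.22 in the 3, 7 and 11 day cotyledons. It is 3.47 in the euphyllas. The exact 95% Poisson limit of a count of 0 is higher. It is 3.752, 3.875 and 3.955 in the 3, 7 and 11 day cotyledons and 4.263 in the euphyllas. A fold is the ratio of 2 normalized values, followed in parentheses by its exact 95% interval (Clopper-Pearson on the counts), which covers counting error only. Calls of higher or lower needed a fold of 2 or more, an interval clear of 1, and 20 or more reads of the unigene summed over both libraries. Where a library had 0 reads, its count was put at a floor of 3 reads, and the fold is written as at least. This convention leaves out the counting error of the other library. The exact 95% limit is lower, and follows in parentheses for the members.

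The unigenes were of uneven length against their matches, which bears on what each count can hold. The cytosolic class I members were *HSP17.6C* (AT1G53540, *Arabidopsis* chromosome 1, 19980462 to 19981109, plus strand) and *HSP18.2* (AT5G59720, chromosome 5, 24062577 to 24063277, plus strand). The cytosolic class II members were *HSP17.6II* (AT5G12020, chromosome 5, 3882237 to 3882938, minus strand) and *HSP17.6A* (AT5G12030, chromosome 5, 3884107 to 3884737, minus strand), whose *Arabidopsis* genes lie 1169 bp apart. The members of other compartments were *HSP22.0* of the endoplasmic reticulum (AT4G10250, chromosome 4, 6370343 to 6371291, plus strand), *HSP21* of the chloroplast (AT4G27670, chromosome 4, 13818870 to 13819971, minus strand) and *HSP15.7* of the peroxisome (AT5G37670, chromosome 5, 14968991 to 14969509, plus strand). *HSP101* matched AT1G74310 (chromosome 1, 27936508 to 27940190, minus strand). These are positions of the matched *Arabidopsis* genes as the annotation lists them, with a build that the sources used here do not name.

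Of the 8 unigenes, 7 were longer than the whole *Arabidopsis* gene they matched, against 35.1% of 18151 unigenes with a nuclear match. Those of *HSP18.2* (1404 bp for a gene of 700 bp), *HSP15.7* (960 bp for 518 bp) and *HSP17.6C* (1055 bp for 647 bp) were over 1.5 times as long, as were 9.44% of all. The unigene of *HSP21*, of 1020 bp for 1101 bp, was the only shorter one. Broccoli carries several copies of many *Arabidopsis* genes, and each locus here had a single unigene, so reads of near-identical copies may be joined in it or lost, and the split of reads between the class I and between the class II members is uncertain.

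Seeds held the most reads of these unigenes by a wide margin. Together the 8 unigenes took 2848 reads in seeds, which is 298 reads per 1e6 (Wilson 95% interval 287 to 309). They took 67.2 per 1e6 (61.7 to 73.1) in 3 day cotyledons and 12.4 (10.5 to 14.8) in 7 day cotyledons. In 11 day cotyledons they took 22.0 per 1e6 (19.3 to 25.1) and in euphyllas 24.3 (20.8 to 28.3). These sums are scaled to total reads and not to the size factors used for folds. With the size factors the order of these 2 tissues was the reverse, 243.4 in 11 day cotyledons and 190.7 in euphyllas. The intervals of seeds, 3 day and 7 day cotyledons did not overlap each other or those of the later tissues, whereas the intervals of 11 day cotyledons and euphyllas overlapped. Every one of the 8 had reads in seeds, while 2, 3 and 1 of them had 0 reads in the 3, 7 and 11 day cotyledons, as had 4 in the euphyllas. Of all 19441 unigenes, 18309 had a read in seeds and 18012, 18319 and 18291 in the 3, 7 and 11 day cotyledons. In euphyllas, the library with the fewest reads, 17870 had one.

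**Figure D1:**
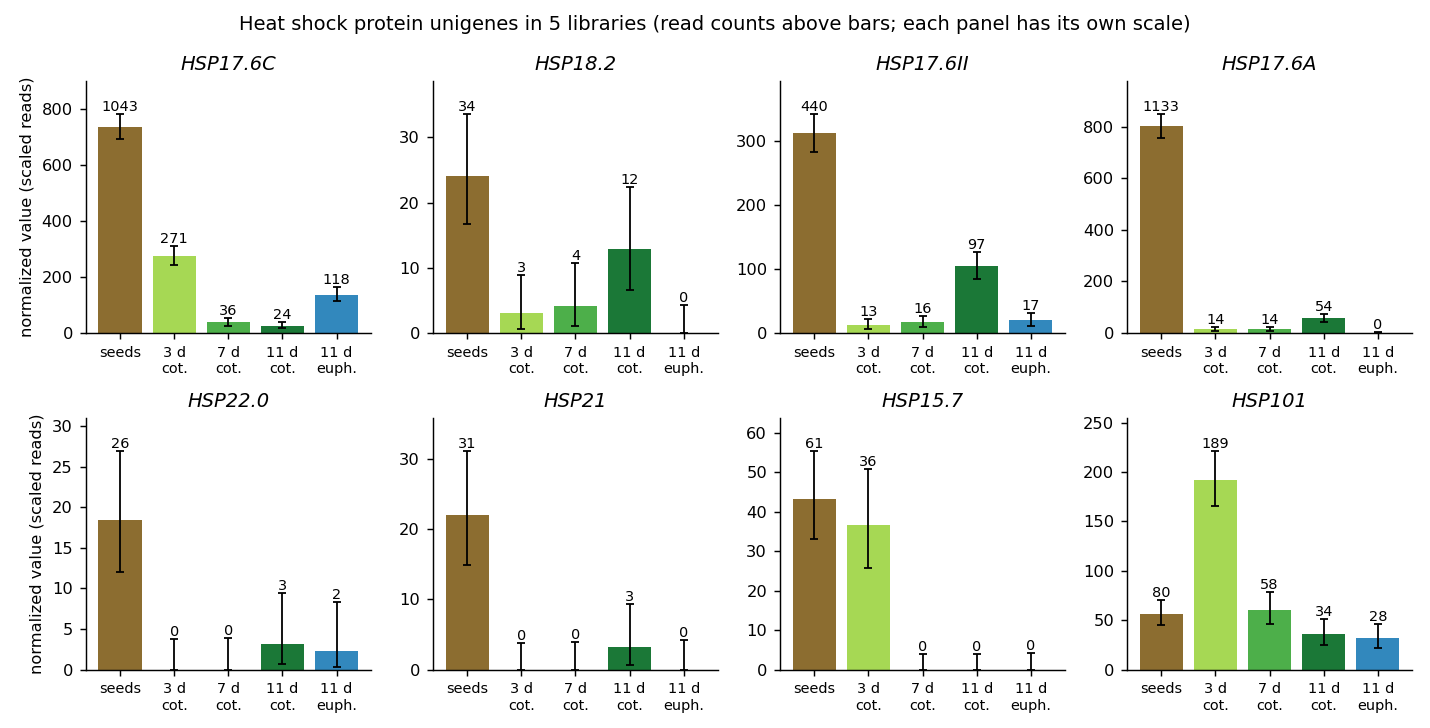
Normalized value (y axis, scaled reads, a separate scale in each panel) of the 8 unigenes in the 5 libraries (x axis: seeds, cotyledons of 3, 7 and 11 days, euphyllas of 11 days). Bars are single libraries, error bars the exact 95% Poisson interval of the count, and the number above a bar is the read count; 7 unigenes are highest in seeds, and *HSP101* is highest in 3 day cotyledons with 189 reads.

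From seeds to 3 day cotyledons, 6 of the 8 unigenes were called lower and 1, *HSP101*, was called higher. Over all 16455 unigenes tested in this pair, 22.5% were called lower and 22.1% higher. The median log2 ratio of the 8 was -3.45 on the log2(normalized value + 1) scale, or -2.72 with counts of 0 set at 3 reads, against -0.10 over all unigenes tested. The class II unigenes, the organellar *HSP21* and *HSP22.0* and the class I *HSP18.2* were nearly gone by day 3, *HSP17.6C* kept part of its level, and *HSP15.7* was not called. *HSP18.2*, *HSP21* and *HSP22.0* reached the minimum of reads only through seeds, with 34, 31 and 26 reads there against 3, 0 and 0. At these day 3 counts, an equal level in seeds would have left them untested, so lower was the only call open to them. They also enter the median. With counts divided by 2, or with a minimum of 100 reads, 3 were called lower, as *HSP18.2*, *HSP21* and *HSP22.0* then had too few reads to be tested.

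*HSP17.6A*, of class II, had the most reads of all members in seeds. Its unigene had 1133 reads in seeds, against 14, 14 and 54 in the 3, 7 and 11 day cotyledons and 0 in the euphyllas, which are normalized values of 802, 14.2, 14.7, 57.9 and 0. Seeds stood far above every other library, and 11 day cotyledons stood second. The value of seeds was 56.3-fold (33.4 to 103) that of 3 day cotyledons. The levels of 3 and 7 day cotyledons did not differ beyond counting error, with a fold of 1.03 (0.456 to 2.34).

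*HSP17.6II*, the other class II chaperone, had the same order of libraries at the top. Its unigene had 440 reads in seeds, against 13, 16 and 97 in the 3, 7 and 11 day cotyledons and 17 in the euphyllas (normalized values of 311, 13.2, 16.8, 104 and 19.6). Seeds were highest, 11 day cotyledons second, and the other 3 libraries were low and did not differ beyond counting error in any pair. The value of seeds was 23.6-fold (13.6 to 44.6) that of 3 day cotyledons and 2.99-fold (2.40 to 3.77) that of 11 day cotyledons.

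The class I chaperone *HSP17.6C* fell more slowly. Its unigene had 1043 reads in seeds, against 271, 36 and 24 in the 3, 7 and 11 day cotyledons and 118 in the euphyllas (normalized values of 738, 276, 37.8, 25.7 and 136). The order was seeds, 3 day cotyledons, euphyllas and then the older cotyledons, and within it only 7 and 11 day cotyledons did not differ beyond counting error, at 1.47-fold (0.853 to 2.58). Seeds were 2.68-fold (2.34 to 3.07) above 3 day cotyledons, which in turn were 7.29-fold (5.14 to 10.6) above 7 day cotyledons.

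*HSP18.2*, the second class I member, was a low transcript, with 34 reads in seeds, against 3, 4 and 12 in the 3, 7 and 11 day cotyledons and 0 in the euphyllas. Its normalized values were 24.1, 3.05, 4.20, 12.9 and 0, so that seeds and 11 day cotyledons were again the highest pair. Seeds were 7.89-fold (2.48 to 40.1) above 3 day cotyledons. The gap between seeds and 11 day cotyledons, 1.87-fold (0.945 to 3.97), was within counting error.

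The chaperones of the endoplasmic reticulum and the chloroplast were detected almost only in seeds. *HSP22.0* had 26 reads in seeds, 0 at both day 3 and day 7, 3 in the 11 day cotyledons and 2 in the euphyllas. *HSP21* had 31 reads in seeds, likewise 0 at day 3 and day 7, 3 in the 11 day cotyledons and 0 in the euphyllas. No library after seeds held more than 3 reads of either, so a level was detectable at this depth in seeds alone, where the normalized values were 18.4 for *HSP22.0* and 21.9 for *HSP21*. Seeds were at least 6.03-fold (exact limit 4.56) higher than 3 day cotyledons for *HSP22.0* and at least 7.19-fold (exact limit 5.51) higher for *HSP21*.

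*HSP15.7*, the peroxisomal member, was found in the first 2 libraries only. Its unigene had 61 reads in seeds, 36 in 3 day cotyledons and 0 in each of the other 3 libraries, and its normalized values in the first 2 were 43.2 and 36.6. Seeds and 3 day cotyledons did not differ beyond counting error, with a fold of 1.18 (0.768 to 1.83). Its value in 3 day cotyledons was at least 11.6-fold (exact limit 8.97) higher than in 7 day cotyledons.

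*HSP101* was the one member with another course. Its unigene, the longest at 4782 bp, had 80 reads in seeds, against 189, 58 and 34 in the 3, 7 and 11 day cotyledons and 28 in the euphyllas (normalized values of 56.6, 192, 60.9, 36.5 and 32.4). The 3 day cotyledons stood above all other libraries, at 3.40-fold (2.60 to 4.47) the value of seeds and 3.16-fold (2.34 to 4.31) that of 7 day cotyledons. Seeds and 7 day cotyledons did not differ beyond counting error (1.08-fold, 0.754 to 1.53), nor did 11 day cotyledons and euphyllas (1.13-fold, 0.663 to 1.93).

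**Figure D2:**
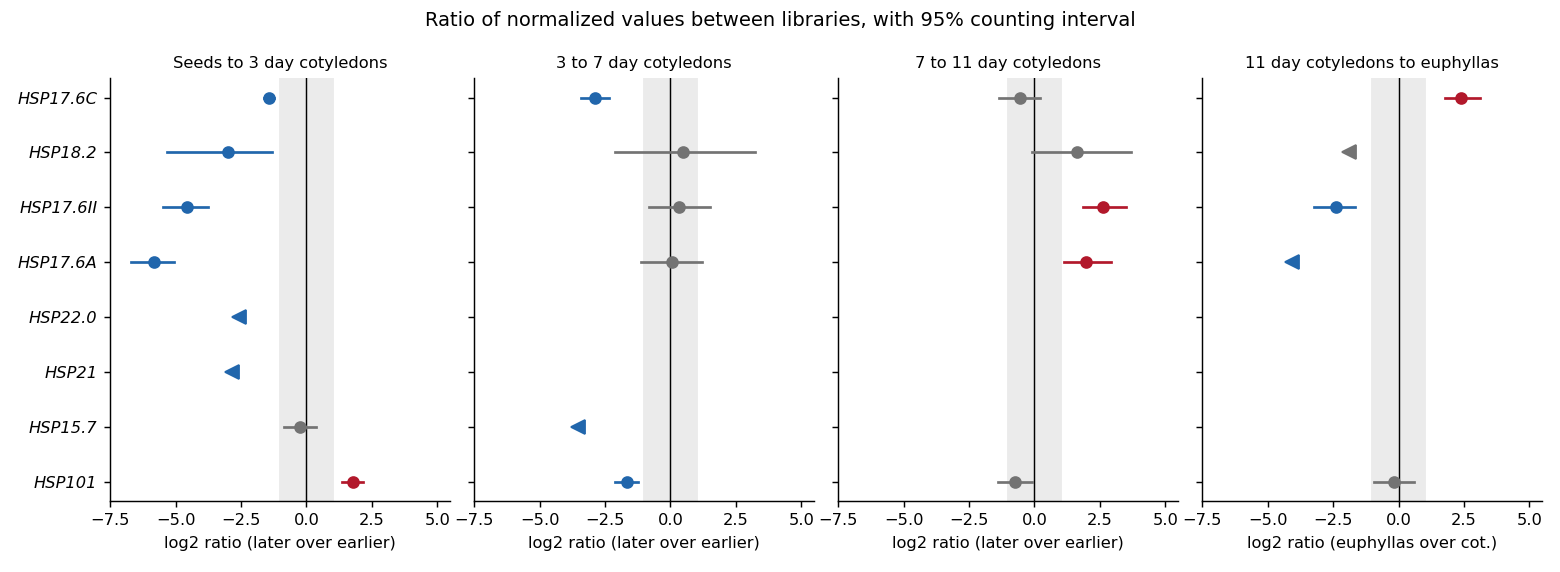
Log2 ratio of normalized values (x axis, second library over first) of the 8 unigenes (y axis) in 4 successive comparisons. Points carry the 95% counting interval, and triangles are folds with a count of 0 put at 3 reads. Blue is called lower, red called higher and grey not called. The grey band holds folds under 2, and a row is empty where neither library held more than 3 reads. *HSP101* is red in the first panel, and the class II pair is blue in the first and last panels and red in the third.

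From 3 to 7 day cotyledons the class I *HSP17.6C*, the peroxisomal *HSP15.7* and *HSP101* fell. Of the 5 unigenes with enough reads, 3 were called lower (*HSP17.6C*, *HSP15.7* and *HSP101*) and 0 higher, where 15.4% of 16307 unigenes tested were called lower and 23.3% higher. Without the unigenes over 1.5 times as long as their match, 1 was called lower, *HSP101*. The class II pair was not called in this step, having reached its low level by day 3. The median log2 ratio of the 5 was -1.64, against 0.04 over all unigenes tested. *HSP15.7* reached the minimum of reads only through 3 day cotyledons, with 36 reads there against 0. At that day 7 count lower was the only call open to it, and it also enters the median. The summed normalized value of the 8 unigenes went from 2015 in seeds to 535 at day 3 and 134.5 at day 7.

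From 7 to 11 day cotyledons both class II unigenes were called higher, out of 4 unigenes with enough reads, and 0 were called lower. Over all 16396 unigenes tested 19.4% were called higher and 18.4% lower. *HSP17.6II* was 6.19-fold (3.63 to 11.3) and *HSP17.6A* 3.94-fold (2.16 to 7.68) higher in 11 day cotyledons. *HSP18.2* had 4 and 12 reads, 3.06-fold (0.928 to 13.0), too few to be tested. *HSP17.6C* and *HSP101* were not called. The median log2 ratio of the 4 was 0.68, against -0.01 over all unigenes tested.

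Between the 2 tissues of 11 day sprouts *HSP17.6C* and the class II pair went opposite ways. Of 4 unigenes with enough reads, 2 were called lower in euphyllas than in cotyledons (*HSP17.6II* and *HSP17.6A*) and 1 higher (*HSP17.6C*), where 26.3% of 16291 unigenes tested were called lower and 21.0% higher. *HSP17.6II* was 5.29-fold (3.14 to 9.46) and *HSP17.6A* at least 16.7-fold (exact limit 13.1) lower in euphyllas. *HSP17.6C* was 5.30-fold (3.40 to 8.60) higher there, and this call rests on a unigene over 1.5 times as long as its match. *HSP18.2*, the other class I member, had 12 reads in cotyledons and 0 in euphyllas, too few to be tested. The median log2 ratio of the 4 was -1.26, against -0.10 over all unigenes tested. *HSP17.6A* reached the minimum of reads only through cotyledons, with 54 reads there against 0. At that euphylla count lower was the only call open to it, and it also enters the median.

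Set directly against seeds, and sharing the seed library with the comparison above, later tissues also had lower values for most members. In 7 day cotyledons 7 of 8 unigenes were called lower than in seeds and 0 higher, against 25.9% and 29.0% of all unigenes tested. In 11 day cotyledons 6 were called lower and 0 higher, against 28.0% and 30.9%, and *HSP18.2* and *HSP101* were not called. In euphyllas 7 were called lower and 0 higher, against 24.4% and 25.6%. *HSP101* was not called in any of the 3, and its folds of seeds over 11 day cotyledons and over euphyllas were 1.55 (1.03 to 2.39) and 1.75 (1.13 to 2.80). *HSP17.6C* was lowest against seeds in 11 day cotyledons, 28.7-fold (19.2 to 45.0). *HSP17.6A* was lowest in euphyllas, where seeds were at least 231-fold (exact limit 188) higher. *HSP21*, *HSP22.0* and *HSP15.7* had at most 3 reads in each of these later tissues. They reached the minimum of reads only through seeds, as did *HSP18.2* in the pairs with 7 day cotyledons and euphyllas. The same held for *HSP17.6A*, with 0 reads in euphyllas, in the pair with euphyllas.

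Highest values in seeds were common in these libraries. Among 18104 unigenes whose counts summed to 20 or more, 29.3% had their highest value in seeds and 15.0% in 3 day cotyledons. The members gave 7 of 8 and 1 of 8, and 4 of 5 had their highest value in seeds without the unigenes over 1.5 times as long as their match. The count of 7 was the same with values scaled to total reads, with TMM factors and with the RPKM columns.

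Levels of different members were compared per kb of unigene, since their lengths differ. In seeds the normalized value per kb was 1104 for *HSP17.6A*, 699.5 for *HSP17.6C* and 344 for *HSP17.6II*, which placed them at percentiles 97.8, 96.0 and 90.6 of all unigenes with a read in seeds. The other 5 members were low transcripts in seeds, from 11.8 per kb for *HSP101* (percentile 19.9) to 45.0 per kb for *HSP15.7* (percentile 48.4). *HSP101* reached 40.2 per kb, percentile 46.5, in 3 day cotyledons. After seeds, the highest percentile of any member was 86.4, for *HSP17.6C* in 3 day cotyledons, followed by 75.1 for the same unigene in euphyllas.

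Among the 8 unigenes, the one with the largest per-kb share was not the same in every tissue. *HSP17.6A* made up 48.9% of the summed per-kb value of the 8 unigenes in seeds, and *HSP17.6C* 31.0%. *HSP17.6C* led in 3 day cotyledons with 69.5%, in 7 day cotyledons with 39.6% and in euphyllas with 80.9%. In 11 day cotyledons the class II pair led, with 47.5% for *HSP17.6II* and 33.0% for *HSP17.6A*, and *HSP17.6C* was at 10.1%. In 7 day cotyledons these shares rest on 128 reads in all. Small heat shock proteins outside the 8 had higher values per kb in most libraries. These were *HSP23.6* (AT4G25200) in seeds (2781), *HSP17.6B* in 7 and 11 day cotyledons (315.6 and 202.7) and *HSP17.4B* in euphyllas (181.5). In 3 day cotyledons *HSP17.6C*, at 261.3, was above those listed outside the 8, which reached at most 126.6.

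**Figure D3:**
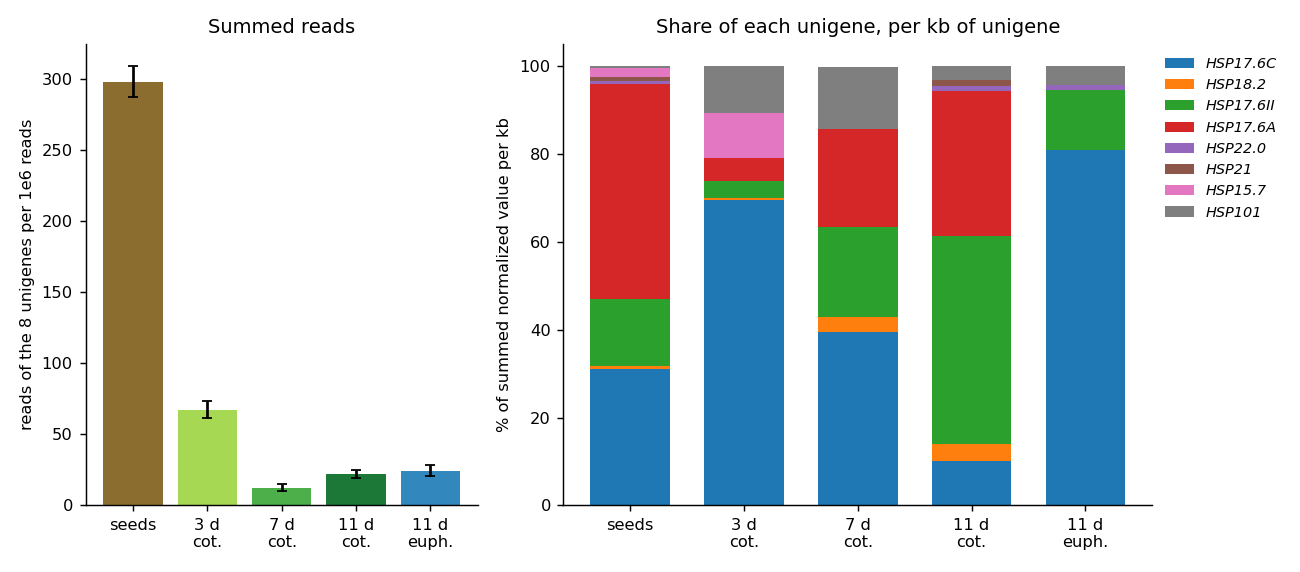
Left, reads of the 8 unigenes per 1e6 reads (y axis) in each library, with Wilson 95% intervals. Right, share of each unigene in the summed normalized value per kb of unigene (y axis, percent) in each library; *HSP17.6A* (red) leads in seeds with 48.9%, *HSP17.6II* (green) in 11 day cotyledons with 47.5%, and *HSP17.6C* (blue) in the other 3 libraries.

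The annotation of the members overlapped beyond their names. All 8 unigenes carried the GO terms response to heat, response to high light intensity, response to hydrogen peroxide and protein folding, a combination found on 115 of the 19441 unigenes (0.592%). Heat acclimation was listed for 4 of them (*HSP17.6A*, *HSP21*, *HSP18.2* and *HSP101*), and response to endoplasmic reticulum stress for *HSP17.6A*, *HSP17.6II*, *HSP17.6C* and *HSP101*, but not for *HSP22.0*. The KEGG entry of the HSP20 family was shared by the 7 small heat shock proteins and by 7 further unigenes. The 213 unigenes annotated with response to heat, a set picked after its values were seen, include the members. From seeds to 3 day cotyledons 203 of them were tested, of which 79 were called lower and 21 higher, with a median log2 ratio of -0.73. Over all unigenes tested 22.5% were called lower and 22.1% higher, with a median of -0.10.

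Small heat shock proteins outside the members had several courses. Of 9 loci 7 had a unigene and 6 were tested from seeds to 3 day cotyledons, of which 4 were called lower and 0 higher, with a median log2 ratio of -2.38 (-1.71 with counts of 0 set at 3 reads). The shares over all unigenes tested were 22.5% lower and 22.1% higher. The mitochondrial *HSP23.6* (AT4G25200) had more reads in seeds than any member, with 2551 there, then 40, 19 and 5 in the 3, 7 and 11 day cotyledons and 4 in the euphyllas, and seeds were 44.4-fold (32.5 to 62.3) above 3 day cotyledons. *HSP15.4* (37 reads in seeds and at most 2 elsewhere) and *HSP26.5* (23 reads in seeds and at most 2 elsewhere) were also called lower. Both reached the minimum of reads only through seeds, so lower was the only call open to them at their day 3 counts. *HSP18.5* was highest in seeds and present in every library, with 212, 88, 72, 41 and 57 reads, and *HSP23.5* had 2, 4, 3, 12 and 0 reads.

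The class I *HSP17.6B* (AT2G29500), a relative of *HSP17.6C*, had 424, 147, 356, 224 and 175 reads in seeds, the 3 cotyledon stages and euphyllas, with its highest normalized value in 7 day cotyledons. It was called lower from seeds to 3 day cotyledons at 2.01-fold (1.66 to 2.44), just past the limit, and higher from 3 to 7 day cotyledons at 2.50-fold (2.06 to 3.05). *HSP17.4B* (AT1G54050) had 187, 73, 181, 115 and 182 reads and was not called in the first step. Both were present in every library, unlike *HSP21*, *HSP22.0* and *HSP15.7*.

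**Figure D4:**
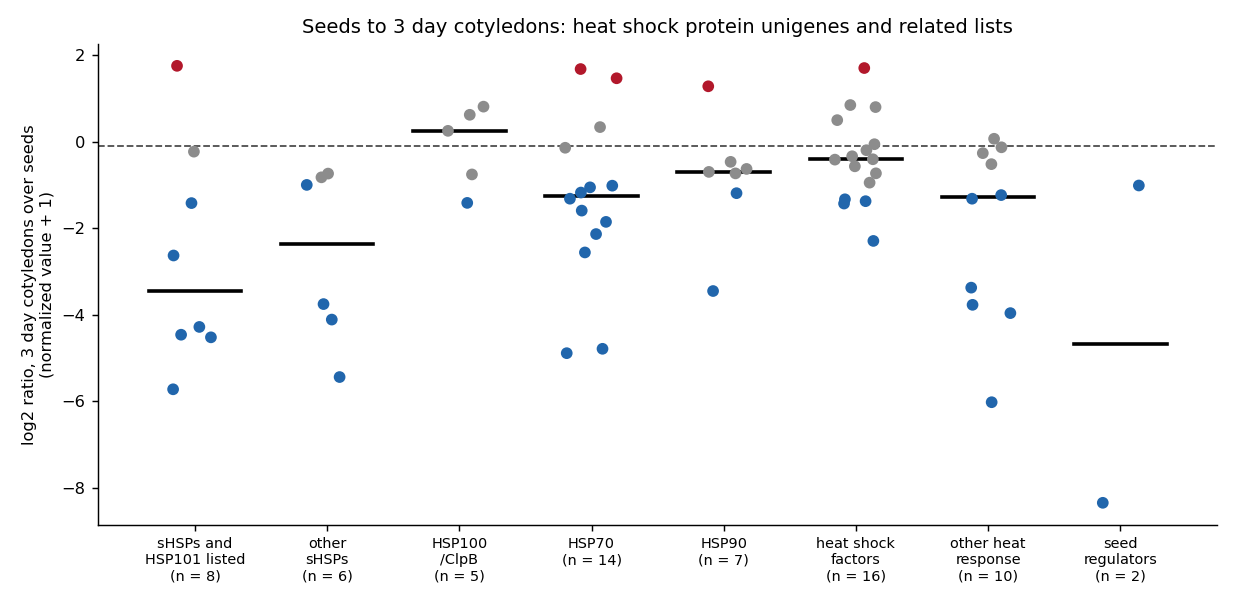
Log2 ratio of 3 day cotyledons over seeds (y axis, normalized value + 1) for each unigene with at least 20 reads in the pair, grouped on the x axis by list. Blue points are called lower, red called higher and grey not called, black lines are list medians and the dashed line is the median of all unigenes tested, -0.10; 6 of the 8 unigenes in the first column are called lower, and 10 of the 14 of the HSP70 family, against 22.5% of all unigenes tested.

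The HSP70 family, whose members serve the cytosol, the endoplasmic reticulum, mitochondria and chloroplasts, had all 14 loci tested from seeds to 3 day cotyledons, of which 10 were called lower and 2 higher (the list's median log2 ratio was -1.25). Of all unigenes tested, 22.5% were called lower and 22.1% higher. The 2 called higher were the chloroplast forms, AT5G49910 at 3.20-fold (3.13 to 3.26) and *cpHsc70-1* at 2.76-fold (2.64 to 2.88). The cytosolic *HSP70* (AT3G12580), a heat-induced form, had 5440 reads in seeds, then 127, 99 and 31 across the cotyledon stages and 9 in the euphyllas, so that seeds were 29.8-fold (24.99 to 35.8) above 3 day cotyledons. The unigene matched to *BIP1*, an endoplasmic reticulum form, had 4596, 115, 96, 16 and 9 reads, with 16 against the 31 of *HSP70* in 11 day cotyledons, and the placing of reads that fit more than one copy is not given in the sources. The constitutive *HSC70-1* had 20795 seed reads against 13110 at day 3 and was not called.

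Among the relatives of *HSP101* in the HSP100/ClpB family, 5 of 6 loci had a unigene, of which 1 was called lower and 0 higher from seeds to 3 day cotyledons (the list's median log2 ratio was 0.25). The single lower call is near the 22.5% called lower over all unigenes tested, where 22.1% were called higher. The mitochondrial ClpB *HSP98.7* was the one called lower, with 1521 seed reads against 396 at day 3, 2.67-fold (2.39 to 2.99). The chloroplast ClpC forms had their highest normalized value in 3 day cotyledons, as *HSP101* had, with 5411, 6590, 1513, 385 and 2828 reads for AT3G48870 and 3200, 2645, 654, 256 and 1430 for *CLPC* (AT5G50920). Neither was called from seeds to 3 day cotyledons, at 1.75-fold (1.69 to 1.82) and 1.19-fold (1.13 to 1.25). The chloroplast ClpB *APG6*, named after its values were seen, had 458, 490, 652, 184 and 345 reads and was not called in that step. *ERD1*, a Clp regulatory subunit of the chloroplast, had its highest value in 11 day cotyledons with 14722 reads, as the class II chaperones had their second highest.

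Of the HSP90 family all 7 loci were tested from seeds to 3 day cotyledons, and 2 were called lower and 1 higher (the list's median log2 ratio was -0.70). With so few loci, these counts are near the shares over all unigenes tested, 22.5% lower and 22.1% higher. *HSP81-1* (AT5G52640), the heat-induced cytosolic form, had 7448 seed reads against 473 at day 3, 10.95-fold (9.98 to 12.1) lower. The mitochondrial *Hsp89.1* was 2.29-fold (2.14 to 2.45) lower, and the chloroplast form *CR88* was 2.43-fold (2.37 to 2.48) higher. *Hsp81.4* had the most reads of the list, with 46557 in seeds and 20910 at day 3. Neither *Hsp81.4* nor *SHD* (3701 and 1862 reads) was called. *HSP101* and the chloroplast forms of HSP70 and HSP90 were called higher in this step, as were 22.1% of all unigenes tested.

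With *HSFA9* not analysed here, 18 of 20 other heat shock factors had a unigene and 16 were tested from seeds to 3 day cotyledons, of which 4 were called lower and 1 higher (the list's median log2 ratio was -0.41). The lower calls are near the 22.5% over all unigenes tested, where 22.1% were called higher. *HSFA4A* had 224, 31, 1178, 1157 and 586 reads in the order above and *HSFA8* 216, 490, 17, 1412 and 686. *HSFA8* was highest in 11 day cotyledons, and *HSFA4A* had like levels in 7 and 11 day cotyledons. *HSF3* (*HSFA1B*), one of the master regulators of the heat response, had 200, 53, 200, 463 and 80 reads. *HSF1* (*HSFA1A*) and *HSFB4* were called lower as well. Of the 5 called factors, *HSF1* and *HSFB4* had their highest value in seeds.

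Other heat response genes followed the small heat shock proteins in part. Of 11 loci 10 were tested from seeds to 3 day cotyledons, and 6 were called lower and 0 higher (the list's median log2 ratio was -1.28). Among all unigenes tested, 22.5% were called lower and 22.1% higher. The immunophilin *ROF2* had 463 seed reads against 4 at day 3, 80.5-fold (31.2 to 297). At that day 3 count an equal level in seeds would have left *ROF2* untested, so lower was the only call open to it. The coactivator *MBF1C* had 334 and 14 reads, 16.6-fold (9.75 to 30.7), and *HSA32*, which in *Arabidopsis* extends acquired thermotolerance together with *HSP101*, had 253 and 12 reads, 14.7-fold (8.25 to 28.8). *Hop3*, *DREB2A* and the DnaJ-like AT2G20560 were the other 3 called lower. The 3 with the most reads of the list were not called. They were *ROF1* (4987 reads in seeds and 2419 at day 3), *APX2* (1968 and 1139) and *HSBP* (1639 and 1194).

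Of the seed regulators, *ABI3* had 457 reads in seeds and 0 to 2 in every other library, at least 106-fold higher in seeds than in 3 day cotyledons. *ABI5*, the abscisic acid response factor, had 219, 75, 34, 83 and 63 reads and was 2.03-fold (1.56 to 2.68) lower in 3 day cotyledons. *FUS3* had at most 2 reads in any library. No unigene carried a match to *DOG1* or *LEC2*, the other 2 of the 5 listed.

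The unigene whose profile over the 5 libraries lay closest to that of *HSP101* was *ADC1* (AT2G16500), an arginine decarboxylase of polyamine synthesis. The measure was the Euclidean distance of centred log2(normalized value + 1) profiles over 5 libraries, among 13757 unigenes with an *Arabidopsis* match and at least 200 reads. *ADC1* lay at a distance of 0.482, with 3776, 5847, 1850, 1332 and 1075 reads. The next 4 were AT3G46430 (0.547), the ubiquitin family gene AT3G13235 (0.609), AT5G05370 of the cytochrome b-c1 complex (0.666) and the UFD1 family gene AT4G15420 (0.672). The nearest of the other members, *HSP17.6C*, lay at 3.68. For *HSP17.6A*, a choice made after its values were seen, the nearest was the bHLH factor *BHLH78* (AT5G48560) at 1.14, with 418, 9, 11, 26 and 0 reads, and among the members *HSP18.2* at 3.62. With 5 points a profile is matched by many unigenes, and likeness here is a description.

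Of the tissue markers, the seed reserve genes fell from seeds to 3 day cotyledons, as did most of the members but not *HSP101*. All 5 seed reserve genes listed were called lower from seeds to 3 day cotyledons, against 22.5% of all unigenes tested. Their summed normalized value was 2794 in seeds, then 63.1, 16.8 and 34.3 across the cotyledon stages and 0 in the euphyllas. *CRU3*, a cruciferin, had 203 reads in seeds and 0 in all other libraries. *CRA1* and *OLEO1*, of the same list, had 6 and 8 reads at day 3. At these day 3 counts an equal level in seeds would have left these genes untested, so lower was the only call open to them. The 4 green tissue genes summed to 458.5 in seeds and to between 15540 and 99870 elsewhere. Of 4 seed coat genes 2 had a unigene, and their sum lay between 217.7, in 3 day cotyledons, and 511.9, in euphyllas, with 285.9 in seeds. The 3 genes of young leaves and dividing cells summed to 485.7 in 11 day cotyledons and 2915 in euphyllas, the pair between which *HSP17.6C* and the class II members went opposite ways. The part of the tissue makeup in the differences of the members was not tested.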

How the data were processed

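RNA of 5 broccoli tissues was sequenced as 1 library each, pooled from 3 biological replicates. The authors assembled the reads with Velvet and Oases, matched the unigenes to *Arabidopsis*, mapped the reads with Bowtie and scaled with DESeq. Versions of these tools were not given in the sources used here, so none are printed. The deposited count columns hold mapped reads per unigene, the deposited signal columns hold counts divided by the size factor, and the deposited RPKM columns served only as an alternative. Counts exceed the trimmed read pairs, so both mates or repeated placements are counted and the intervals are too narrow. Of 10 tables of library pairs 3 were read, and 45 columns of sample values in the tables were not used. Columns of the authors' comparisons (fold change, p-value, FDR) were not used.

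Folds, intervals and calls were computed over all unigenes with Python 3.11.15, numpy 2.4.6 and scipy 1.17.1, and the call rule was tested on simulated data. Medians used a pseudocount of 1. The members and lists were chosen with earlier results of these data known. Named genes are the 10 members, the 3 unigenes with the most reads of each list and those called from seeds to 3 day cotyledons (examples are printed), and the 5 nearest profiles to *HSP101*. *APG6*, *BHLH78*, *HSP18.5*, *HSP23.5* and other genes outside this rule were named after their values were seen. For *HSFA9* no profile could be compared, and promoter motifs were not analysed here. Alternatives were scaling to total reads or by TMM (edgeR 4.0.16), a 99% interval, a fold limit of 4, minima of 10 and 100 reads, counts divided by 2, a floor of 1 read, a pseudocount of 10 and, chosen after seeing the data, leaving out unigenes over 1.5 times the gene length.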

Additional observations from a re-analysis of the deposited data

How the results depend on the processing

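Of the 7 unigenes with their highest value in seeds, 4 of 5 were left without those over 1.5 times as long as their match. From seeds to 3 day cotyledons, 3 unigenes in place of 6 were called lower with a minimum of 100 reads and also with counts divided by 2, and 0 were called higher with a fold limit of 4. From 3 to 7 day cotyledons 1 in place of 3 was called lower without the long unigenes. From 7 to 11 day cotyledons 1 in place of 2 was called higher with a fold limit of 4 or a minimum of 100 reads. From 11 day cotyledons to euphyllas 1 in place of 2 was called lower with a minimum of 100 reads, and 0 in place of 1 higher without the long unigenes. These changes follow from fewer unigenes reaching the limit or being counted. The other 64 of 72 counts of calls under the alternatives stayed within 1.5 times. None of the 48 recomputed log2 ratios of single members, under scaling to total reads and TMM, changed its call. Those of *HSP18.2* after the first comparison had too few reads to be tested under any scaling, so their call could not change. Under scaling to total reads 3 ratios that were not called changed sign, those of *HSP17.6A* (0.05 to -0.39) and *HSP17.6II* (0.35 to -0.09) from 3 to 7 day cotyledons and of *HSP101* (-0.17 to 0.32) from 11 day cotyledons to euphyllas. Scaling to total reads shifted all log2 ratios of the 4 comparisons by -0.24, -0.44, -0.03 and 0.49. A pseudocount of 10 moved the median of the members from seeds to 3 day cotyledons from -3.45 to -1.45, as several have few reads. No paired analysis was possible because each tissue has 1 library. Plant to plant variation was pooled before sequencing, and levels of *HSP21*, *HSP22.0* and *HSP18.2* rest on 53 reads or fewer over the 5 libraries.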
